A study of Mus musculus with 6 samples.

Results

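Egr1, Egr2, Egr3, Nr4a1, Nr4a2, Nr4a3, Ier2, Ier3, Ier5 and Srf were followed in mouse pancreas after cerulein. These 10 genes were chosen by symbol from the 36333 rows of the deposited count table. Each has a row, and all 10 passed the filter on low counts that left 12441 genes for testing. The study asked which lncRNAs and mRNAs differ in the early stage of acute pancreatitis. It sequenced RNA from whole pancreas of wild-type (WT) mice, with 3 libraries after intraperitoneal cerulein and 3 after intraperitoneal saline. Cerulein, a cholecystokinin analogue that overstimulates acinar cells, was injected 10 times (200 µl per injection, 200 µg/kg/h), with the pancreas taken when the last injection had been given. The labels give no strain, age, sex or number of saline injections, and do not say whether each library came from a separate mouse. The p-values therefore set the group difference against the spread between libraries of a group, which may not be that between mice.

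Immediate early genes are transcribed within minutes of a stimulus, before new protein is made. In acinar cells the cholecystokinin receptor signals through calcium, protein kinase C and the RAS-ERK cascade. ERK activates ternary complex factors that sit beside SRF, the serum response factor, on the CArG boxes of early gene promoters, while calcium and cyclic AMP act through CREB. EGR proteins are zinc finger transcription factors, NR4A proteins are orphan nuclear receptors, and the IER proteins are small regulators without a DNA-binding domain of known type.

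Promoter sequences are shown for the members whose windows held a searched motif, since the factors that bind these motifs include members themselves. RefSeq windows (GRCm38.p6) from 250 bases before to 50 bases after a start site matched 7 of the 10 members. Egr1, Egr3 and Ier2 had none. A search of both strands covered the CArG box bound by SRF, the cyclic AMP response element TGACGTCA, its CREB core site TGACG, the EGR site GCGNGGGCG and the NR4A monomer site NBRE, AAAGGTCA. The full element contains the core site on both strands. Motif matches are in capitals, and each sequence is written 5′ to 3′ on the gene's strand, up to the start site or the gene's own annotated exons in GENCODE M21.
Srf (minus strand, chr17:46556176-46556412): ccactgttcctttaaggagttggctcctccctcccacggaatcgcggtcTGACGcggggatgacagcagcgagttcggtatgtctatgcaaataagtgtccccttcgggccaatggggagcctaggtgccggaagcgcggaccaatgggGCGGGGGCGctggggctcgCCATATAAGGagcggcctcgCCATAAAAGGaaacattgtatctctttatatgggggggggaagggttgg
Egr2 (plus strand, chr10:67537619-67537868): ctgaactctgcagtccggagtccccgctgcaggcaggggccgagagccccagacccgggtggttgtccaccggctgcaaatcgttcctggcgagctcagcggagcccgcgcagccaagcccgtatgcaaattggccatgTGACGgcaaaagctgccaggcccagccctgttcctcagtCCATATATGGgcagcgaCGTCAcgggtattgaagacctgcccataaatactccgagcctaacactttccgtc
Nr4a1 (plus strand, chr15:101266596-101266845): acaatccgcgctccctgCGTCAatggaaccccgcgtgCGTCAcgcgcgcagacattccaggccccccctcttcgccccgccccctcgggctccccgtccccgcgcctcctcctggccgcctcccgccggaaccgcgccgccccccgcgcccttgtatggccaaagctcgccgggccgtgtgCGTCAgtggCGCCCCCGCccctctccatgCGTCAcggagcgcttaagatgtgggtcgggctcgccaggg
Nr4a2 (minus strand, chr2:57124004-57124253): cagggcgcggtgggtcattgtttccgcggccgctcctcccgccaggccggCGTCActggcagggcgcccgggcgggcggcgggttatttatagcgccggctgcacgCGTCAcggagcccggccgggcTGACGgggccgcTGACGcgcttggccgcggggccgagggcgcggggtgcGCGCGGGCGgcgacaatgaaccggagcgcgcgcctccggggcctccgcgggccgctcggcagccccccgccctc
Nr4a3 (plus strand, chr4:48045055-48045152): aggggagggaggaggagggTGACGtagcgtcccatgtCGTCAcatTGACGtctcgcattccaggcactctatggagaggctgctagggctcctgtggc

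The Srf promoter held 2 CArG boxes, starting 82 and 62 bases before the start site, with a CREB core site at 201 and an EGR site at 101. At least 2 CArG boxes occurred in 5 of 27025 genes with a window (0.0185%), and at least 1 in 1.81%. The Egr2 window shown held a CArG box 72 bases before the start, with CREB core sites at 111 and 55. Of its other windows, the 2 that overlap it cover the same box, another holds a separate CArG box, and that of the most upstream start held none of the motifs. Nr4a1, Nr4a2 and Nr4a3 each held 4 CREB core sites in the 300 bases and no CArG box. The fourth site of Nr4a3, 147 bases before the RefSeq start, lies inside an exon of GENCODE and is not printed. At least 4 core sites occurred in 69 of 27025 genes (0.255%), and at least 1 in 23.0%. Nr4a1 and Nr4a2 also held an EGR site, as did 6.27% of genes. The Ier3 and Ier5 windows held none of the 5 motifs. None of the 7 members with a window held a full cyclic AMP response element or an NBRE. Such matches are letters in a window, and binding was not measured.

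After cerulein 9 of the 10 genes rose, none fell, and Egr3 did not pass the threshold. The threshold was an adjusted p of 0.05 in edgeR's two-sided quasi-likelihood test, with Benjamini-Hochberg adjustment over all 12441 genes. Over all genes, 28.7% were called higher and 27.1% lower. The median log2 fold change of the 10 members was 2.39, against -0.001 for all genes tested. Of the members, 7 were called higher with an estimated rise of at least 2-fold, against 18.3% of all genes. A call with an estimate of at least 4-fold was found for 6 members, against 6.4% of all genes. The calls test for any change, not for a fold threshold. The 3 cerulein libraries lay above all saline libraries for those 9 members, which also held for 32.4% of all genes, while 30.6% lay wholly lower in cerulein. Levels are given as CPM, reads scaled by library size and TMM factor, and raw counts of the members lay between 5 and 4755 reads per library.

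**Figure D1:**
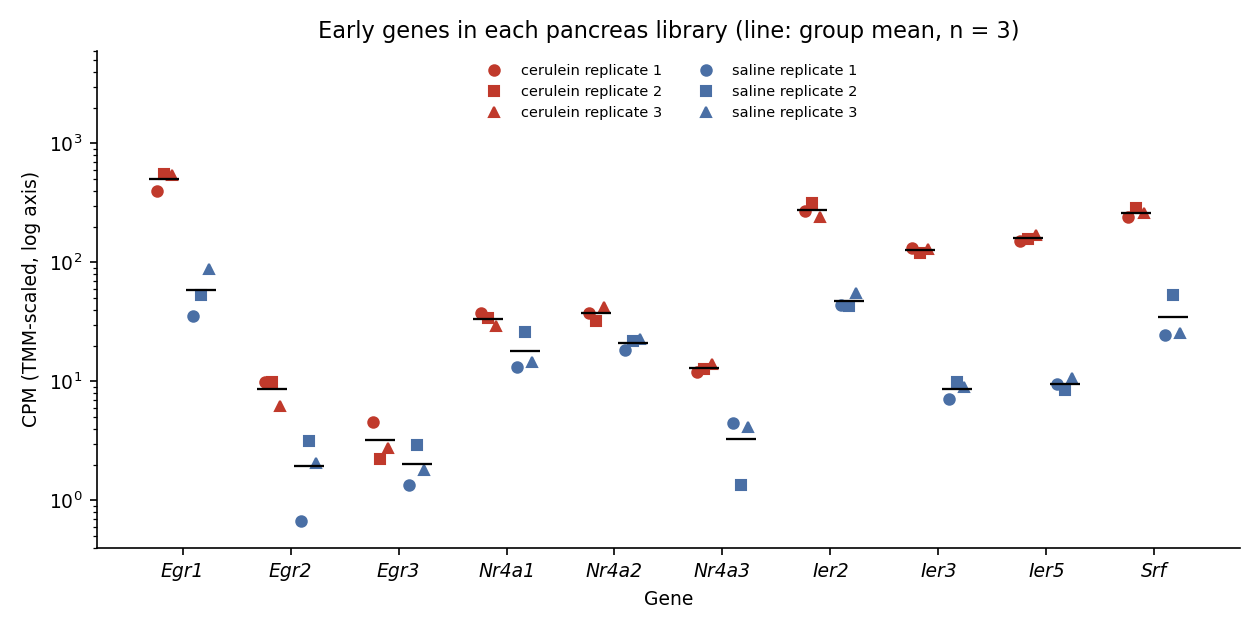
CPM of each of the 10 genes (x axis) on a log axis, with 1 point per library, cerulein in red to the left and saline in blue to the right, and a line at each group's mean. The groups are separate for every gene except Egr3.

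Srf, which binds CArG boxes, stood at 241, 285 and 259 CPM in cerulein replicates 1, 2 and 3, against 24.6, 53.2 and 25.6 CPM in saline replicates 1, 2 and 3. The cerulein libraries were close together and at least 4 times as high as any saline library. Saline replicate 2 was the highest of its group. The log2 fold change was 2.93 ± 0.28 (SE, adjusted p = 5.98e-06, edgeR), and 3.38 without saline replicate 2. The gene lies at chr17:46548329-46556175 on the minus strand (GENCODE M21, GRCm38).

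Egr1, the most abundant EGR gene here, stood at 402, 555 and 545 CPM in the cerulein libraries, against 35.1, 53.7 and 87.4 CPM in saline. Its groups were far apart, and saline replicate 3 was the highest of its group. Egr1 averaged 500.4 ± 85.5 CPM in cerulein and 58.8 ± 26.5 CPM in saline (SD, n = 3 each), a log2 fold change of 3.10 ± 0.31 (SE, adjusted p = 1.03e-05, edgeR). Egr2, known for its role in Schwann cell myelination and in lymphocytes, stood at 9.92, 9.80 and 6.17 CPM in cerulein, against 0.675, 3.14 and 2.05 CPM in saline. The groups did not overlap, but saline replicate 1 rested on 5 reads. The log2 fold change of Egr2 was 2.25 ± 0.44 (SE, adjusted p = 7.68e-04, edgeR), with 2.85 when saline replicate 2 was left out and 1.68 without saline replicate 1.

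Egr3, which acts in lymphocytes and in muscle spindle development, was the exception. It stood at 4.60, 2.22 and 2.77 CPM after cerulein, from 39, 19 and 22 reads, against 1.35, 2.92 and 1.80 CPM after saline, from 10, 13 and 7 reads. Saline replicate 2 lay above cerulein replicates 2 and 3, so the groups overlapped. The log2 fold change was 0.70 with a 95% interval of -0.26 to 1.66 (adjusted p = 0.199, edgeR). That interval includes both no change and rises of up to 1.66 on the log2 scale. With library size alone as the scaling, Egr3 was called, at 1.30 (adjusted p = 0.0359).

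All 3 NR4A receptors rose, with smaller fold changes than Egr1 and Srf, a difference that was not tested. Nr4a1, also called Nur77, stood at 37.8, 34.2 and 29.2 CPM after cerulein, against 13.1, 26.1 and 14.6 CPM after saline. Its groups came close, at 29.2 CPM in cerulein replicate 3 and 26.1 CPM in saline replicate 2. Nr4a1 had a log2 fold change of 0.93 ± 0.24 (SE, adjusted p = 0.00544, edgeR), and its adjusted p over all alternatives was at most 0.0439, without saline replicate 3. Nr4a2, also called Nurr1 and required for midbrain dopamine neurons, stood at 37.7, 32.1 and 42.3 CPM in cerulein, against 18.4, 21.8 and 22.6 CPM in saline. Its saline libraries were the closest together of the 10 genes, with the highest saline library 1.23 times the lowest. Its log2 fold change was 0.84 ± 0.17 (SE, adjusted p = 0.00104, edgeR). Nr4a3, also called Nor1, was the least abundant of these receptors, at 11.9, 12.7 and 14.1 CPM in cerulein, against 4.46, 1.35 and 4.10 CPM in saline. Saline replicate 2, with 6 reads, was the lowest. The log2 fold change of Nr4a3 was 1.92 ± 0.33 (SE, adjusted p = 2.45e-04, edgeR). The 95% intervals were 0.41 to 1.45 for Nr4a1, 0.47 to 1.22 for Nr4a2 and 1.22 to 2.62 for Nr4a3. The difference between these receptors was not tested.

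All 3 IER genes rose, and Ier5 and Ier3 had the largest log2 fold changes of the 10 members. Ier5, whose protein acts with a PP2A phosphatase on the heat shock factor HSF1, stood at 151, 158 and 171 CPM in cerulein, against 9.46, 8.54 and 10.8 CPM in saline. Both groups were tight, and the cerulein mean was 16.7 times the saline mean. Its log2 fold change was 4.06 ± 0.17 (SE, adjusted p = 7.68e-09, edgeR). Ier3, also called IEX-1 and known as a regulator of cell survival and ERK signalling, stood at 133, 119.5 and 130.3 CPM in cerulein, against 7.16, 9.88 and 8.98 CPM in saline. The log2 fold change of Ier3 was 3.90 ± 0.18 (SE, adjusted p = 9.52e-09, edgeR). Ier2, a nuclear protein induced by growth factors, stood at 269, 315 and 239.5 CPM in cerulein, against 44.0, 42.9 and 55.4 CPM in saline. Ier2 was thus higher in saline than the other IER genes, and it had a log2 fold change of 2.54 ± 0.19 (SE, adjusted p = 1.83e-07, edgeR). Its 95% interval, 2.14 to 2.94, lay below those of Ier3, 3.51 to 4.28, and Ier5, 3.69 to 4.44, though the difference itself was not tested. Among all 12441 genes ranked by log2 fold change, Ier5, Ier3 and Ier2 were at ranks 121, 146 and 483. The other members were at 274 for Egr1, 328 for Srf, 625 for Egr2 and 849 for Nr4a3. Nr4a1, Nr4a2 and Egr3 were far lower, at 2555, 2758 and 3239.

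**Figure D2:**
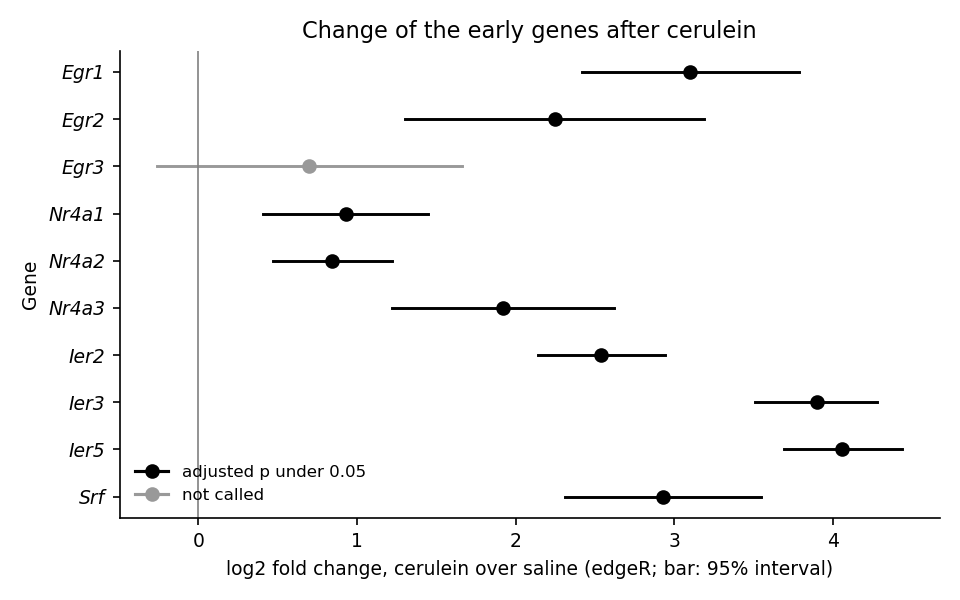
Log2 fold change, cerulein over saline, of each gene from edgeR (x axis) with its 95% interval as a bar, black for called genes and grey for Egr3. The values run from 0.70 for Egr3 to 4.06 for Ier5.

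To compare levels between genes, CPM was divided by the union exon length in GENCODE M21, as CPM per kb. In cerulein the order of mean levels was Ier2 at 180.4, Ier3 at 113, Egr1 at 112, Srf at 90.3, Ier5 at 48.8, Nr4a1 at 9.61, Nr4a2 at 9.20, Egr2 at 2.54, Nr4a3 at 2.16 and Egr3 at 0.726 CPM per kb. Among neighbours in that order, the ranges over libraries of Ier3 and Egr1, Egr1 and Srf, Nr4a1 and Nr4a2, and Egr2 and Nr4a3 overlapped. The other neighbours did not overlap. Within each cerulein library, however, Egr1 was above Srf. In saline Ier2 was again highest, at 31.2 CPM per kb, followed by Egr1 at 13.1, Srf at 11.9, Ier3 at 7.67, Nr4a2 at 5.15, Nr4a1 at 5.11, Ier5 at 2.93, Egr2 at 0.576, Nr4a3 at 0.552 and Egr3 at 0.459. Here the ranges of Egr1 and Srf, Srf and Ier3, Nr4a2 and Nr4a1, Egr2 and Nr4a3, and Nr4a3 and Egr3 overlapped. Within each saline library, however, Srf was above Ier3. By mean level Ier3 was the second in cerulein and the fourth in saline, and Ier5 the fifth in cerulein and the seventh in saline. The place of Ier3 in cerulein is not firm, since Egr1 was above it in cerulein replicates 2 and 3.

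Shares within a family do not depend on how libraries are scaled, and they are given without a test. A share also falls when another member rises more, so a lower share need not be a fall of the gene. Ier2 held 52.0, 57.4 and 48.5% of the summed IER level per kb in cerulein replicates 1, 2 and 3, against 75.8, 71.3 and 76.4% in saline. The Ier5 share was 13.5, 13.3 and 16.1% in cerulein, against 7.57, 6.59 and 6.90% in saline. The Ier3 share was 34.5, 29.3 and 35.5% in cerulein, against 16.6, 22.1 and 16.7% in saline. The groups did not overlap for any of these IER shares, with Ier2 lower and the other members higher in cerulein. In the EGR family, Egr1 held 97.0% ± 1.16 of the summed level in cerulein and 92.4% ± 3.63 in saline (SD, n = 3 each). The Egr3 share was 0.673% ± 0.388 in cerulein and 3.52% ± 1.46 in saline (SD, n = 3 each), without overlap. Egr3 itself averaged 3.20 CPM in cerulein and 2.02 CPM in saline, from 7 to 39 reads per library. Egr2 shares overlapped between the groups. Among the receptors, Nr4a1 held 45.9% ± 5.56 in cerulein and 46.2% ± 9.44 in saline, and Nr4a2 43.8% ± 4.93 in cerulein and 48.3% ± 6.32 in saline (SD, n = 3 each), and both overlapped. The Nr4a3 share was 9.04, 10.7 and 11.2% in cerulein, against 8.27, 1.73 and 6.58% in saline, which were separate by a small margin.

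**Figure D3:**
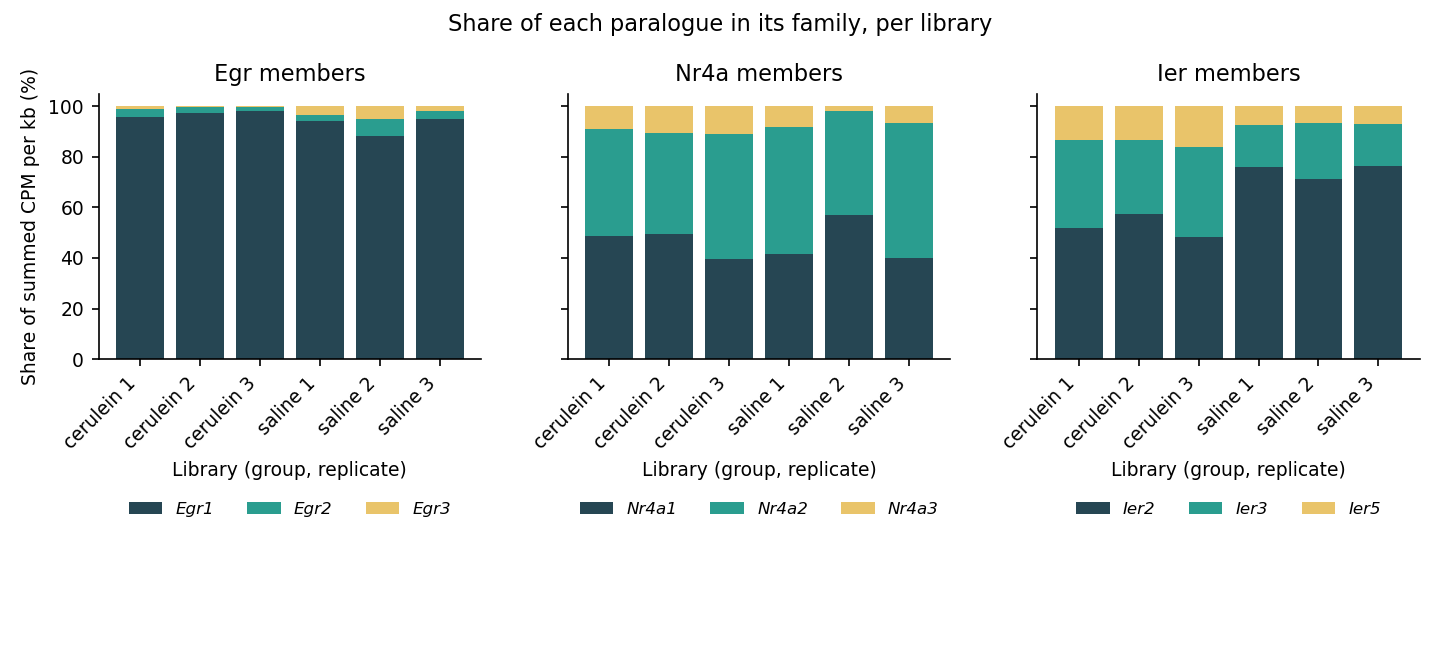
Share of each paralogue in the summed CPM per kb of its family (y axis, %) in the 3 cerulein libraries on the left of each panel and the 3 saline libraries on the right. Egr1 makes up nearly all of the Egr bar in each library, and the Ier2 share is 48.5 to 57.4% in cerulein and 71.3 to 76.4% in saline.

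The sizes of these changes depend on the scaling between libraries. The TMM factors were 1.13 to 1.30 in cerulein and 0.72 to 1.03 in saline. With library size alone the log2 fold changes of the members were higher by 0.53 to 0.63, and the median of all genes moved by 0.563. With upper-quartile factors that median moved by -0.197. Calls over all genes split into 3574 higher and 3373 lower with TMM, 5188 and 1453 with library size alone, and 2895 and 4190 with upper-quartile factors. The 9 rises among the members were called under each of these scalings.

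**Figure D4:**
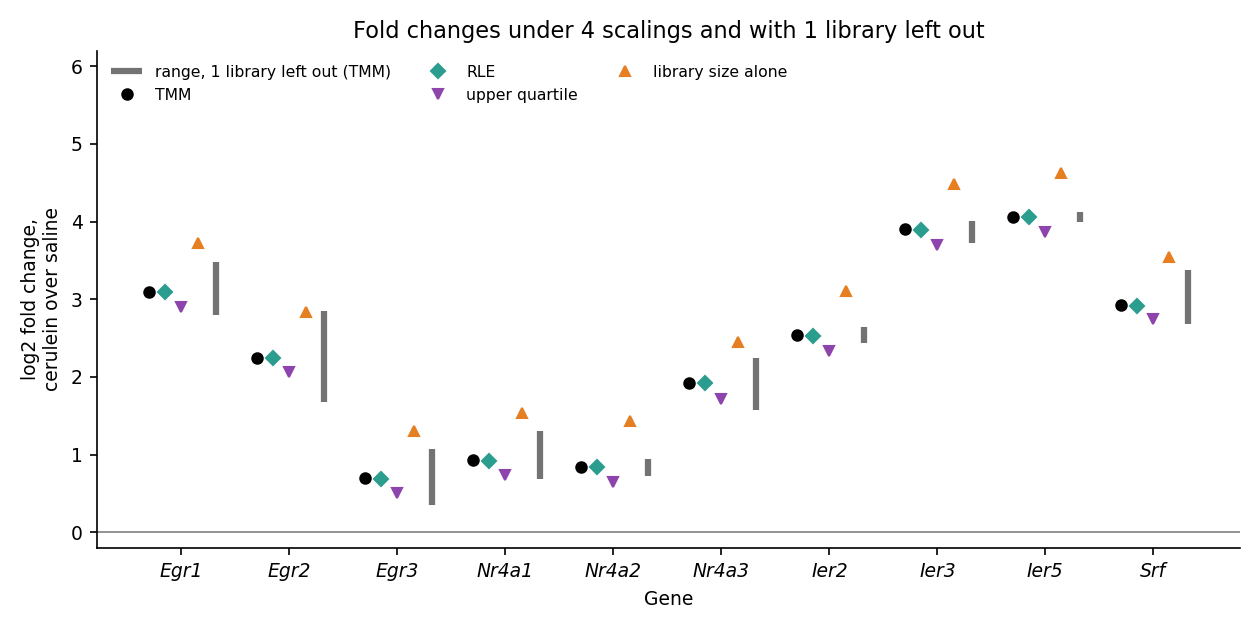
Log2 fold change of each gene, cerulein over saline (y axis), with TMM, RLE and upper-quartile factors and with library size alone, and as a grey bar the range with 1 library left out. All values are above 0, and library size alone gives the highest value for 9 of the 10 genes.

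Genes whose pattern over the libraries was most like that of Egr1, Nr4a1 or Ier3 were sought among 11240 named genes outside the lists, by the root mean square difference of centred log2 CPM over the 6 libraries. For Egr1 these were the chemokine gene Ccl7, with a difference of 0.15, and Csf3, which encodes the granulocyte growth factor G-CSF, with 0.17. Ccl7 averaged 52.6 ± 15.2 CPM in cerulein and 5.67 ± 2.62 CPM in saline (SD, n = 3 each). Csf3 had 32, 55 and 57 reads in cerulein, against 1, 1 and 3 in saline. Its log2 fold change in edgeR was 4.08, against 3.10 for Egr1. The log2 CPM behind these differences carried a prior count of 2, which shrinks contrasts at such low reads. The small difference of Csf3 from Egr1 therefore does not mean equal fold changes. For Nr4a1 they were Toe1, an exonuclease gene, at 0.10 and Rnf26, a ubiquitin ligase gene of the ER, at 0.13. Toe1 averaged 9.99 ± 0.849 CPM in cerulein and 5.88 ± 2.16 CPM in saline, and Rnf26 33.9 ± 2.02 CPM in cerulein and 20.6 ± 7.48 CPM in saline (SD, n = 3 each). For Ier3 they were Pde10a, a cyclic nucleotide phosphodiesterase gene, at 0.15 and Ccdc71l at 0.17. Pde10a averaged 18.8 ± 2.44 CPM in cerulein and 1.22 ± 0.385 CPM in saline (SD, n = 3 each), and Ccdc71l 204 ± 14.3 CPM in cerulein and 13.9 ± 0.689 CPM in saline. These genes were chosen for their pattern in the same libraries, so their levels are given without a test.

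The counts in the related lists below are to be set against the 28.7% of all genes called higher and the 27.1% called lower. Among EGR relatives and corepressors, 1 of 2 tested genes rose and none fell. Nab2, a corepressor that binds EGR proteins and is itself an EGR target, stood at 15.3, 11.1 and 12.0 CPM in cerulein, against 4.73, 3.14 and 3.08 CPM in saline. Its log2 fold change was 1.76 ± 0.27 (SE, adjusted p = 1.07e-04, edgeR). Its relative Nab1 had a log2 fold change of 0.20 ± 0.15 (adjusted p = 0.263, edgeR), and Egr4 was too low to test, with 1 read in the 6 libraries. Of 5 tested SRF cofactors, 1 rose and 1 fell. Mrtfa, a cofactor released by actin polymerisation and listed under its older symbol Mkl1, rose by 1.96 ± 0.22 on the log2 scale. Elk3, a ternary complex factor, averaged 9.42 ± 0.863 CPM in cerulein and 23.7 ± 2.67 CPM in saline (SD, n = 3 each), a log2 fold change of -1.32 ± 0.18. The other ternary complex factors had log2 fold changes of -0.03 ± 0.30 for Elk1 and 0.97 ± 0.48 for Elk4, and Mrtfb had 0.13 ± 0.19, none of them called. Without saline replicate 1, without a count filter or with library size alone, 2 SRF cofactors were called higher.

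Cytoskeletal genes known as SRF targets rose for 9 of 12 tested and fell for none, with a median log2 fold change of 2.10, against -0.001 for all genes. Zyx, encoding the focal adhesion protein zyxin, averaged 811 ± 53.6 CPM in cerulein and 48.5 ± 6.65 CPM in saline (SD, n = 3 each), a log2 fold change of 4.06 ± 0.20. The tropomyosin gene Tpm4 and the LIM-domain cofactor gene Fhl2 rose by 3.23 ± 0.20 and 4.01 ± 0.30, and Actb by 3.38 ± 0.25. The smooth muscle genes Acta2 and Myl9 had log2 fold changes of 0.70 ± 0.52 and 0.49 ± 0.45 and were not called, and Tagln and Cnn1 were too low to test. Cnn2 was also not called, at 1.06 ± 0.42 (SE, adjusted p = 0.0618, edgeR), though its groups did not overlap. Across the alternatives, 9 to 12 genes of this list were called higher.

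Other immediate early genes rose for 21 of 25 tested, with a median log2 fold change of 2.40. By smallest p they were led by the transcription factor gene Atf3 at 5.46 ± 0.21, Csrnp1 at 3.29 ± 0.17, the small MAF gene Maff at 3.03 ± 0.18 and the AP-1 gene Junb at 3.24 ± 0.19 (SE, edgeR). Sgk1, a serum- and glucocorticoid-induced kinase gene named after its value was seen, was the gene that fell, with -1.41 ± 0.18. Fosb, Per1 and Plk2 were not called, with -0.68 ± 0.63, -0.43 ± 0.19 and -0.61 ± 0.37. The number called lower was 3 without saline replicate 1, and 2 without saline replicate 2, without a count filter or with upper-quartile factors.

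Of 13 RAS-ERK cascade genes, 4 rose and 4 fell, with a median log2 fold change of -0.13, shares near those over all genes (28.7% higher and 27.1% lower). The RSK kinase genes Rps6ka2 and Rps6ka1, whose products act below ERK, rose by 1.61 ± 0.17 and 1.03 ± 0.22, and Hras by 1.21 ± 0.18. Araf, a RAF kinase gene, had -0.94 ± 0.15. The ERK gene Mapk3 was not called, at -0.13 ± 0.17. Nras and the MEK gene Map2k1, which also fell, are named after their values were seen, and cerulein replicate 1 stood apart in both. Nras stood at 291, 84.0 and 77.8 CPM in cerulein, against 381, 499.6 and 555 CPM in saline. Map2k1 stood at 114, 41.5 and 44.8 CPM in cerulein, against 127, 175 and 187 CPM in saline. In both genes cerulein replicate 1 was nearest to saline. The number of cascade genes called lower was 5 without cerulein replicate 1. It was 2 without cerulein replicate 2, cerulein replicate 3 or saline replicate 1, 1 without saline replicate 2 or saline replicate 3, and 0 with library size alone.

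In the CREB axis 2 of 8 genes rose and 1 fell. Crem, a CREB relative whose internal promoter gives the repressor ICER, stood at 34.1, 49.6 and 39.5 CPM in cerulein, against 8.65, 4.49 and 5.13 CPM in saline, a log2 fold change of 2.69 ± 0.25 (SE, adjusted p = 1.42e-06, edgeR). The coactivator genes Crtc3 and Crtc1 had log2 fold changes of 1.56 ± 0.18 and -0.77 ± 0.18, both called, and Creb1 itself had 0.24 ± 0.19 and was not. With library size alone 5 genes of this list were called higher and none lower.

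Among the IER relative and partner genes 4 of 5 rose and 1 fell. Mcl1, a survival gene whose product binds IER3, rose by 1.99 ± 0.17 on the log2 scale, and Ppp2r2a, a PP2A subunit gene, by 1.88 ± 0.17. Hsf1 rose by 1.18 ± 0.16 and Ier5l, the IER5 relative, by 2.10 ± 0.41. Ier5l is named after its value was seen. Ppp2r5c, another PP2A subunit gene, had -0.84 ± 0.15 and lost its call with library size alone. Of the NR4A partners, Rxrb had a log2 fold change of 0.81 ± 0.21 and Rxra -0.44 ± 0.14 (adjusted p = 0.00485 and 0.0194, edgeR), and Rxrg was too low to test. The call of Rxra was lost without any of the cerulein replicates 1, 2 and 3 or without saline replicate 2, without a count filter and with library size alone.

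**Figure D5:**
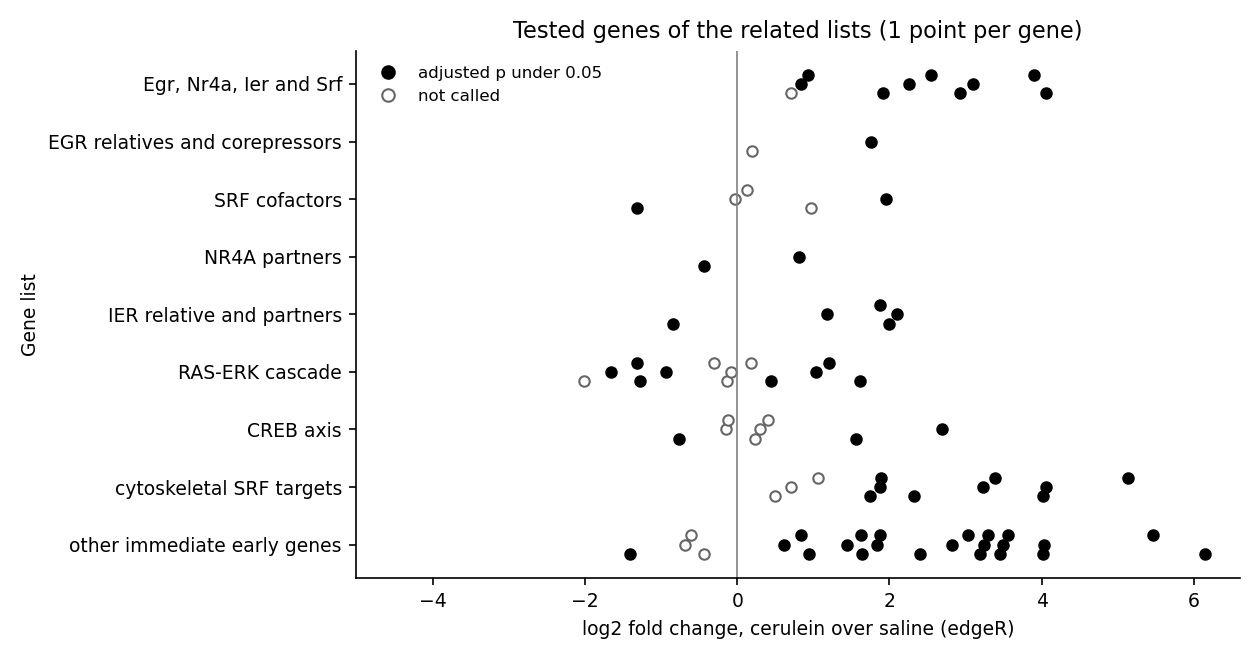
Log2 fold change, cerulein over saline (x axis), of each tested gene in the 10-gene group and the related lists, filled where called and open where not called. Cytoskeletal SRF targets and other immediate early genes lie mostly above 0, and the RAS-ERK cascade lies on both sides.

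Some markers of the cell types in the tissue changed as well, and their part in these results was not tested. Over all genes, 28.7% were called higher and 27.1% lower, and the marker counts are to be set against these shares. Neutrophil, T and B cell, endothelial, fibroblast and stellate, and islet markers were called at shares near or under them. Acinar markers had the highest sum of the marker lists in each library, at 162404 to 204888 CPM in cerulein and 254019.7 to 475873.5 CPM in saline, and 6 of 7 fell. Saline replicate 1 stood apart, with an acinar sum of 254019.7 CPM, against 475873.5 and 465678 CPM in saline replicates 2 and 3. In whole tissue, fewer cells of a type and less RNA per cell cannot be told apart. Monocyte and macrophage markers summed to 558 to 661 CPM in cerulein and 205 to 429 CPM in saline, with 4 of 10 higher and none at 0. Lyz2 was the largest part of that sum, at 253 ± 32.7 CPM in cerulein and 129 ± 42.2 CPM in saline (SD, n = 3 each). It was called higher, as were Cd14, Ccr2 and Cd68. The other 6, Adgre1, Csf1r, C1qa, C1qb, Mrc1 and Itgam, were not called, with log2 fold changes from -0.87 for Adgre1 to 0.86 for Itgam. Neutrophil markers summed to 57.4 to 129 CPM in cerulein and 20.7 to 235 CPM in saline, with the highest value in saline replicate 1 and 1 of 8 tested markers higher. T and B cell markers summed to 30.1 to 65.9 CPM in cerulein and 7.64 to 47.7 CPM in saline, with none of 7 called, and Trac and Ms4a1 were at 0 in all libraries. Endothelial markers summed to 156 to 189 CPM in cerulein and 147 to 176 CPM in saline, with 2 of 7 higher and 2 lower. Fibroblast and stellate markers summed to 342 to 463 CPM in cerulein and 383 to 437 CPM in saline, with 2 of 7 higher and 1 lower. Islet markers summed to 1004 to 1666 CPM in cerulein and 796, 1896 and 1889.5 CPM in saline replicates 1, 2 and 3, with 1 of 6 lower and Iapp at 0 in all libraries. Without saline replicate 1 the same number of members, 9, was called higher.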

How the data were processed

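RNA was measured in 3 cerulein and 3 saline pancreas libraries made, per the labels' protocols, from TRIzol-extracted RNA with a TruSeq Stranded mRNA kit. The deposited table holds the authors' raw read counts for 36333 rows, and no column of another sample was present. Per the submitters' processing notes, Trimmomatic, STAR, HTSeq and the mm10 build were used. Their versions, the strand setting and the annotation are not stated there. Library totals lay between 5335117 and 7610775 counts, and no libraries were identical.

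edgeR 4.0.16 (R 4.3.3) was run on the counts of all 6 libraries, after filterByExpr (minimum count 10, minimum total 15). It used TMM factors and robust quasi-likelihood fits, a procedure tested on simulated data. That simulation changed only a small part of the genes, with rises and falls drawn alike. It therefore could not test the choice of scaling between libraries. SEs and 95% intervals come from the F statistic and the fit's degrees of freedom. The alternatives were upper-quartile and RLE factors, library size alone, no filter, CPM above 1 in 3 libraries, limma-voom (limma 3.58.1), DESeq2 1.42.0, the replicate number as a block, and each library left out. Symbols were matched to GENCODE M21 (GRCm38) for exon length, in which no member shared exon bases with another gene. That annotation may not be the one counted on.

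The members and the related lists were chosen with earlier results of these data known, so a list's direction is no independent evidence. Named genes were the 10 members, up to 4 called genes of each list by smallest p, and the 2 genes closest in pattern to Egr1, Nr4a1 and Ier3. All other list genes, including each given as not called or too low to test, were named after their values were seen. Some list genes are not reported here.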

Additional observations from a re-analysis of the deposited data

How the results depend on the processing

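Across 14 alternatives the log2 fold changes of the 10 members gave 140 values, of which 139 kept their direction and their side of the threshold. The exception was Egr3, called higher at 1.30 with library size alone. No value reversed. The count of members called higher was 9 in each alternative but library size alone, where it was 10, and none was called lower. Log2 fold changes over all settings ran from 2.80 to 3.73 for Egr1, 1.68 to 2.85 for Egr2, 0.35 to 1.30 for Egr3, 0.68 to 1.53 for Nr4a1, 0.65 to 1.43 for Nr4a2, 1.58 to 2.45 for Nr4a3, 2.34 to 3.11 for Ier2, 3.70 to 4.48 for Ier3, 3.86 to 4.62 for Ier5 and 2.68 to 3.54 for Srf. Over all genes, 1453 were called lower with library size alone, in place of 3373. With the replicate number as a block, 9 members, 3673 genes over all and 2 SRF cofactors were called higher, and 3400 genes over all and 2 RAS-ERK genes were called lower. Deviations of same-numbered libraries correlated at 0.19, 0.216 and -0.15. Cerulein replicates 1 and 2 correlated best with the saline library of their own number, and cerulein replicate 3 did not. This check was therefore mixed and does not decide whether the libraries are paired. The labels do not say that equal numbers mark a shared litter or day, so the main fit did not take them as pairs. Depth limits Egr2, Egr3 and Nr4a3 most, with single saline libraries of 5 to 33 reads.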
